A study of Homo sapiens with 6 samples.

Results

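The Hippo and YAP genes described here are 10 genes, listed by symbol: the target genes CCN1, CCN2, ANKRD1 and AXL, the transcriptional machinery YAP1, WWTR1 and TEAD1, and the regulators AMOTL2, LATS2 and AJUBA. They were chosen as pathway components and standard targets. No cut-off on a measured value was used, but earlier results of these data were known. All 10 were found among the 14788 genes of the deposited expression table. Polyadenylated RNA was sequenced from CAL51, an established line of human triple-negative breast cancer. There were 2 libraries of TREX1 KO-1 cells, 2 of TREX1 KO-2 cells and 2 of control cells. KO-1 and KO-2 carry different guide RNAs against TREX1, the main cytosolic DNA exonuclease, introduced with a CRISPR v2 lentivirus. A note deposited with the tables speaks of several knockout clones, without saying which library comes from which clone. The labels give no treatment or time, and for the control they give only its name, so whether it carried Cas9 or a guide is not known. No label separates the 2 libraries of a group into cultures, and the p-values below therefore reflect a spread between libraries that may be technical.

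YAP1 and its paralog WWTR1, also called TAZ, are transcriptional co-activators that have no DNA-binding domain and act mainly through the TEAD factors. The Hippo kinases MST1/2 and LATS1/2 phosphorylate them, which holds them in the cytoplasm or leads to their degradation. Loss of cell contact, a stiff matrix and actin tension favour their entry into the nucleus, and several of their targets, among them LATS2 and the angiomotin AMOTL2, feed back to restrain them. In triple-negative breast cancer, nuclear YAP and TAZ are known for promoting growth and invasion.

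Between 13222933 and 25785055 reads per library were recovered from the deposited log2 CPM, the log2 of read counts scaled to a common library total. Each of the 10 genes rested on at least 268 reads in every library. KO-2 replicate 1 was the shallowest library and stood apart from the other 5 on the second principal component of all genes, so values for KO-2 are also given without one of its libraries where that changes a call. The epithelial markers EPCAM, KRT8, KRT18 and KRT19 lay between 8.03 and 9.93 log2 CPM. These 4 were themselves higher in the knockouts for both guides, by 0.20 for EPCAM (adjusted p = 0.014) to 0.47 for KRT19 (adjusted p = 1.2e-04), as was VIM (0.37, adjusted p = 0.0033). The epithelial cadherin CDH1 (0.30, adjusted p = 0.055) and the mesenchymal markers CDH2 (0.15, adjusted p = 0.26) and FN1 (0.13, adjusted p = 0.18) were not called. CDH1 lay between 4.84 and 5.41, VIM between 6.20 and 6.74 and CDH2 between 4.41 and 4.68. FN1, between 10.36 and 10.76, lay above all of the epithelial markers. ERBB2, the receptor whose amplification is absent from the triple-negative class, lay between 7.35 and 7.64 and was lower in the knockouts (-0.19, adjusted p = 0.017). The hormone receptor genes ESR1 and PGR were not among the genes of the deposited expression table. Of 5 leukocyte markers, 2 were measured, PTPRC and the barely detected CD14, and their summed level was 19.1 to 20.9 CPM in KO-1, 16.5 to 16.6 CPM in KO-2 and 15.5 to 16.8 CPM in control. Of 3 fibroblast markers, 2 were measured, and their sum was 32.9 to 33.5 CPM in KO-1, 28.3 to 34.8 CPM in KO-2 and 20.7 to 22.9 CPM in control, most of it from COL1A1, which rose by 0.63 (adjusted p = 0.0039). All 3 endothelial markers were measured, with sums of 18.6 to 19.7 CPM in KO-1, 18.3 to 19.6 CPM in KO-2 and 21.4 to 23.2 CPM in control. Of these, CDH5 was lower for both guides (-0.40, adjusted p = 0.03). PECAM1 (0.06, adjusted p = 0.88) and VWF (0.09, adjusted p = 0.75) were not called. The part of these markers in the results below was not tested.

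The first comparison asked how these genes stood in TREX1 knockout cells, taking the mean of both guides against control. Of the 10 genes, 9 rose and 0 fell at an adjusted p below 0.05 over 13765 genes tested with limma. The share of all genes called either way was 29.6%, and 14.6% were called higher. With library medians set equal, 61.7% of all calls were higher in place of 49.4%, and the count for the 10 genes was again 9 higher. The median log2 fold change of the 10 was 0.38, against -0.01 over all genes tested. With bulk RNA, a larger share of expressing cells and more RNA per cell cannot be told apart. AJUBA was the gene that was not called. In each of the 10 genes the 4 knockout libraries did not overlap with the controls, 9 of them lying above and AJUBA below. That happened in 46.3% of all genes tested, in either direction.

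**Figure D1:**
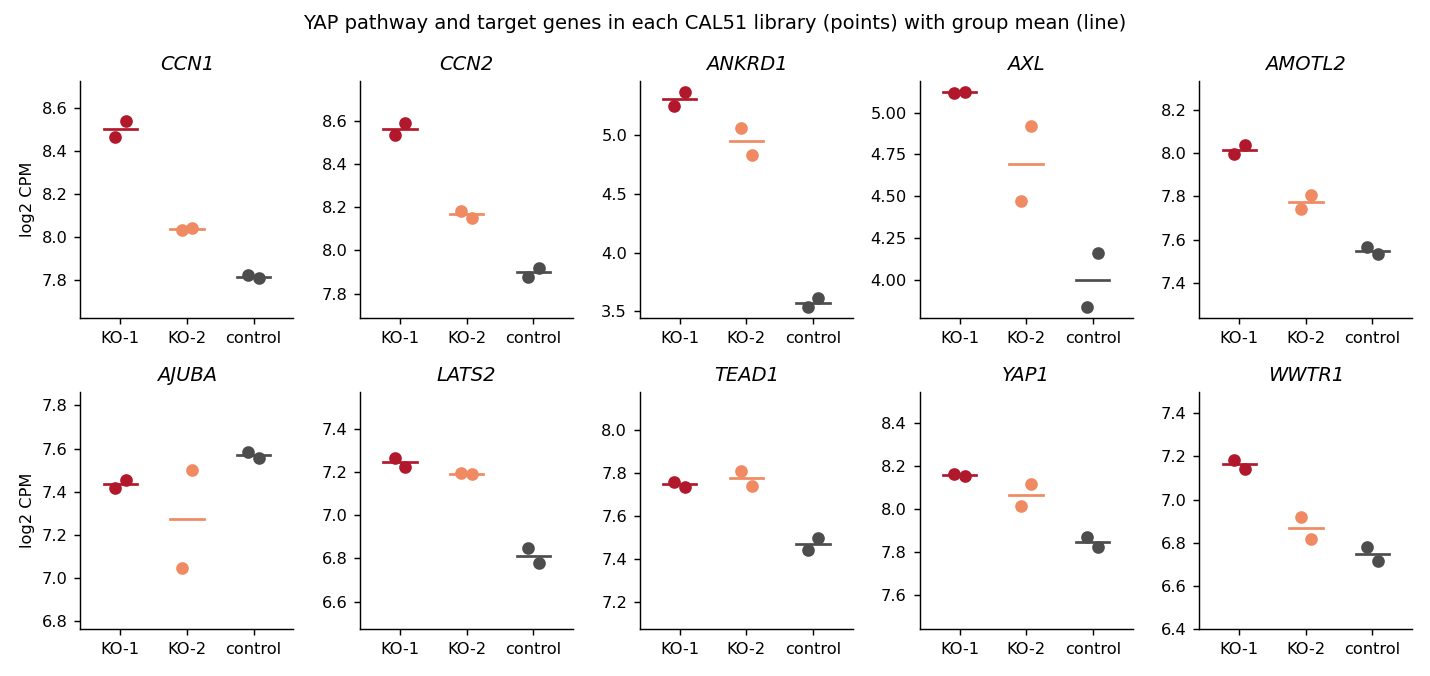
Log2 CPM of the 10 genes in each library, with KO-1, KO-2 and control from left to right; points are single libraries and lines are group means, and each vertical axis has its own range. ANKRD1 shows the widest gap, at 5.25 and 5.37 in KO-1, 5.06 and 4.83 in KO-2, and 3.53 and 3.62 in control, and AJUBA is the gene whose knockout libraries lie below control.

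CCN1 and CCN2 encode secreted matricellular proteins that bind integrins, and both are textbook immediate targets of YAP and TEAD. CCN1 (chromosome 1, 85580761 to 85583950, hg38, plus strand) had 8.47 and 8.54 log2 CPM in KO-1, 8.03 and 8.04 in KO-2, and 7.82 and 7.81 in control. The 3 groups did not overlap, with KO-1 highest and KO-2 close above control. On the log2 scale CCN1 rose in KO-1 by 0.68 ± 0.05 (SE, adjusted p = 1.5e-05), which is 1.61-fold, and in KO-2 by 0.22 ± 0.05 (adjusted p = 0.016), or 1.17-fold.

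CCN2 (chromosome 6, 131948176 to 131951372, minus strand) followed the same order of groups. It had 8.54 and 8.59 log2 CPM in KO-1, 8.18 and 8.15 in KO-2, and 7.88 and 7.92 in control. It rose in KO-1 by 0.67 ± 0.05 (SE, adjusted p = 1.6e-05) and in KO-2 by 0.27 ± 0.05 (adjusted p = 0.0071). Both genes lost the KO-2 call without control replicate 1 (adjusted p = 0.14 for CCN1 and 0.11 for CCN2) and without control replicate 2 (0.15 and 0.064). Quantile normalization also ended that call for CCN1 (adjusted p = 0.064).

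ANKRD1 encodes a cardiac and muscle ankyrin repeat protein that serves as a sensitive YAP reporter gene in epithelial cells. On chromosome 10, 90912096 to 90921087 (minus strand), it was a weakly expressed gene in control, at 11.8 ± 0.5 CPM, against 39.5 ± 2.3 CPM in KO-1 and 30.8 ± 3.4 CPM in KO-2 (SD, n = 2 each). Its log2 CPM was 5.25 and 5.37 in KO-1, 5.06 and 4.83 in KO-2, and 3.53 and 3.62 in control. All 4 knockout libraries thus lay well above control, on 268 to 757 reads per library. ANKRD1 rose 3.32-fold in KO-1 (log2 fold change 1.73 ± 0.11, SE, adjusted p = 6.4e-06) and 2.58-fold in KO-2 (1.37 ± 0.11, adjusted p = 8.3e-05). For the mean of both guides its fold change ranked 32nd from the highest of 13765 genes.

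AXL encodes a receptor tyrosine kinase for the ligand GAS6 and is known as a YAP target linked to invasion and drug tolerance. On chromosome 19, 41219223 to 41261766 (plus strand), it had 5.12 and 5.12 log2 CPM in KO-1, 4.47 and 4.92 in KO-2, and 3.84 and 4.16 in control. The control and KO-2 replicates were spread more widely than those of KO-1, yet no knockout library reached the control range. AXL rose 2.18-fold in KO-1 (log2 fold change 1.12 ± 0.15, SE, adjusted p = 4.5e-04) and 1.62-fold in KO-2 (0.70 ± 0.15, adjusted p = 0.012). The KO-2 call was lost without control replicate 1 (0.54, adjusted p = 0.14).

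TEAD factors bind the element GGAATG, read as CATTCC on the other strand. Of the 10 genes, 8 had a promoter in the RefSeq set used here (GRCh38.p14), and CCN1 and TEAD1 did not. Each promoter spans 250 bases before and 50 after a start of the gene. The sequences of CCN2, ANKRD1 and LATS2, which rose, and of AJUBA, which was not called, are shown because each holds the element. Each is written 5′ to 3′ on the strand of the gene, with the element in capitals.
CCN2, chr6:131951323-131951622, minus strand: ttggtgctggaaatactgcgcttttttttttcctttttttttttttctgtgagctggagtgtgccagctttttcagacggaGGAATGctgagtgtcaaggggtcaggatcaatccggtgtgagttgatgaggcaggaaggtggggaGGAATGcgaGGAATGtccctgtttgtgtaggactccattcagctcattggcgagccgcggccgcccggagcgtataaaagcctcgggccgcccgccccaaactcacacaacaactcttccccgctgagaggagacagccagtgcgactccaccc
ANKRD1, chr10:90921038-90921337, minus strand: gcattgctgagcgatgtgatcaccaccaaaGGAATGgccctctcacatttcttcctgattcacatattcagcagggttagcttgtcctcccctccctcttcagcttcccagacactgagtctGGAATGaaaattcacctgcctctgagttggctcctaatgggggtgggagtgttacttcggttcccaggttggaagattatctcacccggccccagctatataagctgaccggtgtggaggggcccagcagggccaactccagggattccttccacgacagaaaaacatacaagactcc
LATS2, chr13:21061537-21061836, minus strand: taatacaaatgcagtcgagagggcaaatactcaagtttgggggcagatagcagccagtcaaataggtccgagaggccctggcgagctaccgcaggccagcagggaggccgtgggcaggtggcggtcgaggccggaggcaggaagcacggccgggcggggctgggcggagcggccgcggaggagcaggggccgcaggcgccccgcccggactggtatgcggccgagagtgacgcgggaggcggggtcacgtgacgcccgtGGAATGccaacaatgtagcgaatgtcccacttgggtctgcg
AJUBA, chr14:22976793-22977092, minus strand: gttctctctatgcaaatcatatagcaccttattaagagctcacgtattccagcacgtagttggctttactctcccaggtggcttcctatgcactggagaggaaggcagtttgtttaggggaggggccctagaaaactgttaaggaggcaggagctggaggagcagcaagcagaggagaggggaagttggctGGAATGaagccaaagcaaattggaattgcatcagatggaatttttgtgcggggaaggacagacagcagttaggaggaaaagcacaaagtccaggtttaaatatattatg

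The CCN2 promoter holds 3 copies of GGAATG, at -169, -104 and -95 from the first base of the gene, and the ANKRD1 promoter 2, at -220 and -128. Over all 35116 promoters of this length, 14% hold the element on either strand at least once, 1.37% at least 2 times and 0.128% at least 3 times. LATS2 has 1 copy just inside the gene, at 9 bases from its start, YAP1 has 1 at -162, and AMOTL2 and AXL have 1 each on the reverse strand at one of their 2 listed starts. AJUBA has 1 copy at -59 of one of its 2 listed starts. WWTR1 has none in its 2 windows. In all, 7 of the 8 genes held the element in at least 1 window, against 16.7% of the 27305 genes in the set. The 8 genes have 12 windows and were chosen as pathway components and targets, so these shares are no test of enrichment. AP-1 elements often lie near TEAD elements in enhancers, and they were searched as the loose pattern TGANTCA, with any base at N. This pattern was found in the ANKRD1 window, where it reads TGATTCA, and in none of the others. On either strand, 7.71% of all promoters hold the loose pattern. The stricter form with only C or G at N was not counted. The ANKRD1 match does not overlap either copy of GGAATG. A match describes these letters, not binding.

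YAP1, WWTR1 and TEAD1 encode the co-activators and one of their DNA-binding partners. YAP1 (chromosome 11, 102110447 to 102233424, plus strand) had 8.16 and 8.15 log2 CPM in KO-1, 8.01 and 8.11 in KO-2, and 7.87 and 7.82 in control. Both knockouts lay above control, with narrow spreads. YAP1 rose by 0.31 ± 0.06 in KO-1 (SE, adjusted p = 0.0020) and by 0.22 ± 0.06 in KO-2 (adjusted p = 0.023). TEAD1 (chromosome 11, 12674421 to 12944737, plus strand) had 7.76 and 7.73 in KO-1, 7.81 and 7.74 in KO-2, and 7.44 and 7.50 in control. Here the guides gave overlapping levels, and TEAD1 rose by 0.28 ± 0.06 in KO-1 (adjusted p = 0.0042) and 0.30 ± 0.06 in KO-2 (adjusted p = 0.0056).

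WWTR1 (chromosome 3, 149517235 to 149724788, minus strand) was called in KO-1 but not in KO-2, with no test of that contrast beyond the one between the guides given further on. It had 7.18 and 7.14 log2 CPM in KO-1, 6.92 and 6.82 in KO-2, and 6.78 and 6.72 in control. It rose by 0.41 ± 0.06 in KO-1 (SE, adjusted p = 0.0010), and its log2 fold change in KO-2 was 0.12 (95% interval -0.03 to 0.26, adjusted p = 0.24). Without KO-2 replicate 2, which leaves 1 library in KO-2, the KO-2 value was 0.17. With no mean-variance trend, WWTR1 was not called for the mean of both guides (adjusted p = 0.053), nor TEAD1 in KO-1 (adjusted p = 0.054). For the mean of both guides, the call of WWTR1 was lost without control replicate 1 (adjusted p = 0.051) or 2 (0.10), and that of YAP1 without control replicate 2 (0.059). In KO-1, TEAD1 lost its call without control replicate 1 (0.070) and KO-1 replicate 1 (0.059). In KO-2, the calls of YAP1 (0.14 and 0.20) and TEAD1 (0.10 and 0.052) were lost without control replicates 1 and 2, and that of YAP1 without either KO-1 library (0.067 each) and under quantile normalization (0.077).

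AMOTL2, LATS2 and AJUBA regulate the pathway. AMOTL2 is an angiomotin-family scaffold that binds YAP at cell junctions and on actin, and it is itself a YAP target. On chromosome 3, 134355345 to 134375417 (minus strand), it had 8.0 and 8.04 log2 CPM in KO-1, 7.74 and 7.81 in KO-2, and 7.56 and 7.53 in control. It stood in the same order as CCN1 and CCN2, with KO-2 between KO-1 and control. AMOTL2 rose by 0.47 ± 0.06 in KO-1 (SE, adjusted p = 2.0e-04) and by 0.23 ± 0.06 in KO-2 (adjusted p = 0.019). The KO-2 call was lost without control replicate 1 (0.14) or 2 (0.17) and without either KO-1 library (0.057 each).

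LATS2, a kinase that phosphorylates YAP and TAZ and is induced by them, lies on chromosome 13 from 20973036 to 21061586 (minus strand). It had 7.27 and 7.22 log2 CPM in KO-1, 7.20 and 7.19 in KO-2, and 6.85 and 6.78 in control. The knockouts lay close together here, well above control. LATS2 rose by 0.43 ± 0.06 in KO-1 (SE, adjusted p = 4.9e-04) and 0.38 ± 0.06 in KO-2 (adjusted p = 0.0026). The KO-2 call was lost without control replicate 2 (adjusted p = 0.056).

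AJUBA, a LIM domain protein that restrains LATS kinases at junctions under tension, was the exception. On chromosome 14, 22971177 to 22982551 (minus strand), it had 7.42 and 7.46 log2 CPM in KO-1, 7.04 and 7.50 in KO-2, and 7.58 and 7.55 in control. All 4 knockout libraries lay below control, but KO-2 replicate 1 was far below KO-2 replicate 2, which was within 0.1 of the controls. The log2 fold change was -0.13 in KO-1 (95% interval -0.38 to 0.11, adjusted p = 0.41), -0.30 in KO-2 (-0.54 to -0.05, adjusted p = 0.095) and -0.21 for the mean of both guides (adjusted p = 0.12). Without KO-2 replicate 2, the KO-2 value was -0.52 and that of both guides -0.33. There KO-2 rested on replicate 1 alone, the shallowest library, so no call is read from it. The KO-1 value of -0.13 uses no KO-2 library, so leaving out KO-2 replicate 1 or 2 could not move it. The spread is shared over the groups, however. The absence of a call for AJUBA in KO-1 did not hold without either KO-2 library.

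By guide, 9 of the 10 genes rose and 0 fell in KO-1, where 29.7% of all genes were called and 14.6% called higher. In KO-2, 8 of 10 rose and 0 fell, where 16.9% of all genes were called and 8.73% called higher. The medians of the 10 log2 fold changes were 0.45 in KO-1 and 0.25 in KO-2, against -0.00 and -0.02 over all genes. With library medians set equal, 60.5% of all KO-1 calls were higher in place of 49.0%, and 64.5% of KO-2 calls in place of 51.6%; the counts for the 10 genes were again 9 and 8. Both comparisons use the same 2 control libraries. The KO-2 count fell to 2 without control replicate 1, where ANKRD1 and LATS2 were called, and to 2 without control replicate 2, where ANKRD1 and AXL were called. With no mean-variance trend it fell to 1, ANKRD1, while the KO-2 calls over all genes fell to 162 in place of 2329. The calls over all genes also fell without either control library, as given further on.

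The comparison of KO-2 with KO-1 tested whether the guides differed. CCN1 and CCN2 were lower in KO-2, and 2 of the 10 genes were called, both lower, where 1.14% of all genes were called and 0.806% called lower. CCN1 differed by -0.46 ± 0.05 on the log2 scale (SE, 95% interval -0.58 to -0.35, adjusted p = 0.0066), with 8.03 and 8.04 log2 CPM in KO-2 and 8.47 and 8.54 in KO-1. CCN2 differed by -0.40 ± 0.05 (-0.51 to -0.28, adjusted p = 0.0066), with 8.18 and 8.15 in KO-2 and 8.54 and 8.59 in KO-1. The calls of CCN1 (adjusted p = 0.25 and 0.27) and CCN2 (0.25 and 0.30) were lost without KO-1 replicates 1 and 2, where 0 genes in all were called.

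Several other genes had lower levels in both KO-2 libraries than in both KO-1 libraries without passing the test. In 8 of the 10 genes the libraries of the guides did not overlap, each time with KO-2 lower, and 21.9% of all genes showed that. The difference was -0.30 for WWTR1 (95% interval -0.44 to -0.15, adjusted p = 0.056), -0.24 for AMOTL2 (-0.36 to -0.12, adjusted p = 0.063), -0.36 for ANKRD1 (-0.61 to -0.11, adjusted p = 0.15) and -0.43 for AXL (-0.76 to -0.09, adjusted p = 0.20). Without KO-2 replicate 1, the difference was -0.35 for WWTR1, -0.21 for AMOTL2 and -0.47 for ANKRD1. Without KO-2 replicate 2, it was -0.25 for WWTR1, -0.28 for AMOTL2 and -0.65 for AXL. Each of these fits leaves 1 library in KO-2, so no call is read from it. LATS2 (-0.05, 95% interval -0.19 to 0.08), TEAD1 (0.03, -0.10 to 0.15) and YAP1 (-0.09, -0.22 to 0.03) had intervals that included 0, and so had AJUBA (-0.17, -0.41 to 0.08). Without KO-2 replicate 2, YAP1 was at -0.14 and AJUBA at -0.39. AJUBA was at 0.062 without KO-2 replicate 1.

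**Figure D2:**
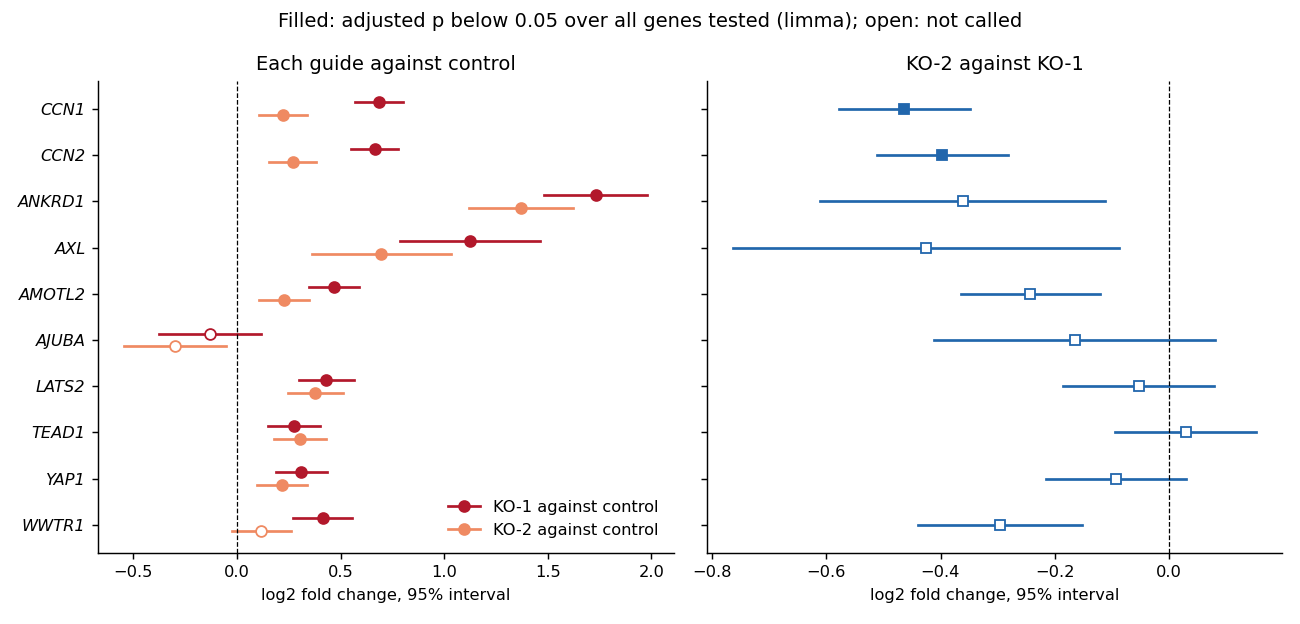
Log2 fold change with its 95% interval for the 10 genes, from limma; the left panel shows KO-1 and KO-2 each against control and the right panel KO-2 against KO-1, with filled symbols for genes called at an adjusted p below 0.05. CCN1 and CCN2 are the filled symbols at -0.46 and -0.40 in the right panel, while LATS2, TEAD1, YAP1 and AJUBA have intervals across 0.

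Levels were compared between genes as CPM per kb of annotated exon. That length merges all annotated exons of a gene and need not be the length of the transcripts expressed. Any order between genes rests on it. CCN2 and CCN1 were the most abundant of the 10, at 161.8 ± 4.5 and 147.6 ± 5.2 CPM per kb in KO-1, 122.9 ± 1.8 and 107.0 ± 0.5 in KO-2, and 102.0 ± 2.0 and 91.8 ± 0.6 in control (SD, n = 2 each). AXL was the least abundant, at 6.73 ± 0.02 in KO-1, 5.07 ± 1.11 in KO-2 and 3.10 ± 0.49 in control. YAP1 stood at 45.3 ± 0.2 CPM per kb in KO-1, 42.5 ± 2.1 in KO-2 and 36.5 ± 0.8 in control, above its paralog WWTR1 at 17.0 ± 0.3, 13.9 ± 0.7 and 12.8 ± 0.4 in the same groups.

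The TEAD family did not move as one. Per kb of exon TEAD4 was the most abundant of the 4 factors, at 29.3 ± 0.5 CPM per kb in KO-1, 33.3 ± 2.4 in KO-2 and 32.4 ± 2.9 in control. Its log2 fold change for both guides was -0.05 (95% interval -0.21 to 0.11, adjusted p = 0.66). TEAD2 fell, to 15.4 ± 0.1 CPM per kb in KO-1 and 17.9 ± 1.1 in KO-2, against 24.1 ± 1.3 in control (log2 fold change for both guides -0.54 ± 0.07, SE, adjusted p = 4.1e-04). TEAD1 stood at 20.9 ± 0.2 in KO-1, 21.3 ± 0.7 in KO-2 and 17.2 ± 0.5 in control. Per kb of exon it lay above TEAD2 in both knockouts and below it in control. In CPM without the length, TEAD1 was the highest of the 4 factors in every group. It was at 177.1 CPM in control, against 71.7 for TEAD2 and 73.6 for TEAD4. TEAD3 was the lowest and rose by 0.27 ± 0.09 for both guides (adjusted p = 0.035). That call was lost with no mean-variance trend (adjusted p = 0.083) and without any 1 control or KO-1 library. The rise was 0.18 without control replicate 1 and 0.36 without control replicate 2.

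Of the paralogs of LATS2 and AMOTL2, LATS1 stood at 11 ± 0.6 CPM per kb in KO-1, 9.08 ± 1.01 in KO-2 and 10.1 ± 0.7 in control. It was not called for both guides (-0.02, 95% interval -0.19 to 0.15), a mean of 0.12 in KO-1 and -0.16 in KO-2. Between the guides LATS1 differed by -0.28 (95% interval -0.48 to -0.08), which was not called. Without KO-2 replicate 1 its value was -0.27 in KO-2 and -0.39 between the guides. Those fits leave 1 library in KO-2, so no call is read from them. LATS2 rose, and the difference between LATS1 and LATS2 was not tested. Among the angiomotins, AMOTL2 was the most abundant. AMOT, at only 58 to 194 reads per library, fell for both guides by 0.71 ± 0.17 on the log2 scale (SE, adjusted p = 0.012). That call was lost without control replicate 1 or 2. By guide, limma called AMOT in KO-1 (-0.98, adjusted p = 0.0044), a call lost without control replicate 2. In KO-2 it was not called (-0.43, 95% interval -0.87 to 0.01, adjusted p = 0.17). Its difference between the guides (0.55, adjusted p = 0.20) was not called either.

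**Figure D3:**
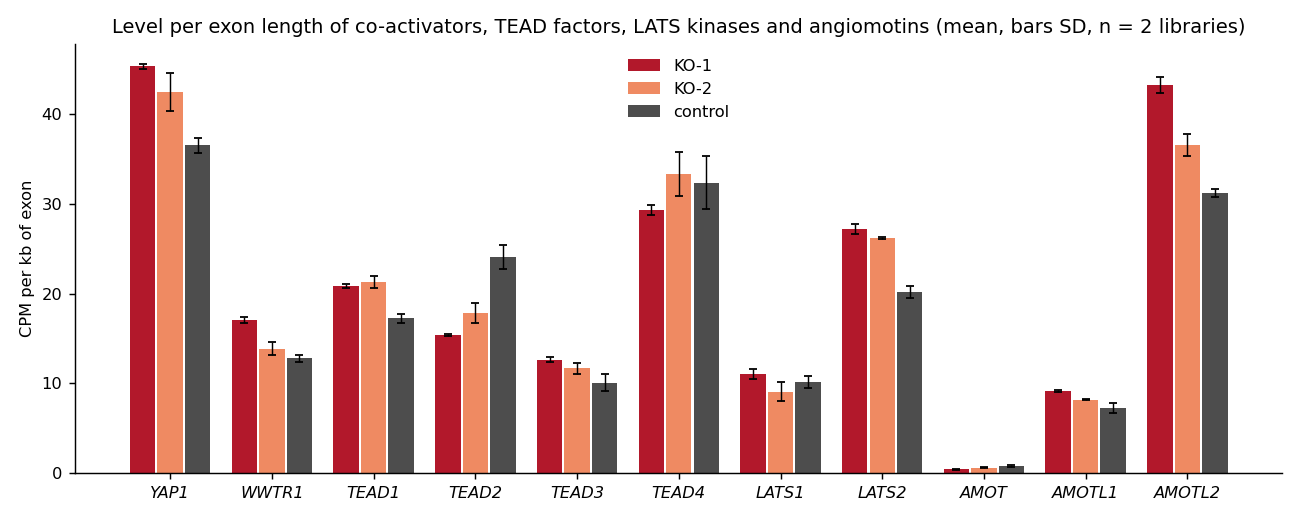
Mean CPM per kb of exon in KO-1, KO-2 and control, from left to right within each gene, with SD over 2 libraries as error bars and an axis that starts at 0. YAP1 lies above WWTR1 in every group, TEAD2 is lower in both knockouts than in control, and LATS2 is higher in both knockouts while LATS1 is not.

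Other targets came from a published conserved YAP/TAZ signature, of which 16 genes are not among the 10. Of these, 15 were tested, and FOXF2 was too low. For both guides, 6 of 15 rose and 1 fell. Their median log2 fold change was 0.11 against -0.01 over all genes, beside a background of 14.6% called higher. The highest was GADD45A, a growth arrest gene that p53 also induces, at 6.66 and 6.65 log2 CPM in KO-1, 5.87 and 6.19 in KO-2, and 5.15 and 5.28 in control. It rose by 1.13 ± 0.09 (SE, adjusted p = 1.8e-05), and it was lower in KO-2 than in KO-1 by a log2 fold change of -0.63 (adjusted p = 0.020), a call lost without KO-1 replicate 1 (0.33) or 2 (0.37).

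PTPN14, a phosphatase that binds and restrains YAP, rose by 0.61 ± 0.08 (SE, adjusted p = 4.9e-04). NT5E, which makes adenosine at the cell surface, rose by 0.54, CRIM1 by 0.31 and DOCK5, a RAC exchange factor, by 0.41. NUAK2, a kinase that acts on actomyosin, rose by 0.21 (adjusted p = 0.041). The call of DOCK5 was lost without control replicate 1 (0.16), and that of NUAK2 without any 1 control or KO-1 library (0.077 to 0.37) and with a replicate block (0.061). NUAK2 also lost its call with no mean-variance trend (adjusted p = 0.092). TGFB2 stood at -0.07 (adjusted p = 0.77). The gene that fell, named after its values were seen, was ARHGEF17, by 0.30 on the log2 scale (adjusted p = 0.027). That call was lost without any 1 control or KO-1 library, with library medians set equal and with no mean-variance trend, where 0 of these genes fell. The number that rose was 4 without control replicate 1, where 712 of all genes were called higher in place of 2011. By guide, 6 rose and 0 fell in KO-1, where 14.6% of all genes were called higher, and 5 rose and 0 fell in KO-2, where 8.73% were. Without either KO-2 library the KO-1 count was 9 and 2, as the calls over all genes went up to 6255 in place of 4089. The KO-2 count was 2 without control replicate 1 and 3 without control replicate 2, with 362 and 472 calls over all genes in place of 2329. It was 7 with 1 falling without KO-2 replicate 2, with 4565 calls over all genes, and 0 with no mean-variance trend, with 162.

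Of 27 other Hippo pathway genes, all were tested. For both guides 8 rose and 3 fell, where 29.6% of all genes were called. The median log2 fold change was 0.05, and it was -0.0032 under quantile normalization and 0.017 without control replicate 1. MOB1A, the activating partner of LATS kinases, rose by 0.46 ± 0.05 (SE, adjusted p = 1.4e-04). VGLL4, which competes with YAP for TEAD factors, rose by 0.41 ± 0.05 (adjusted p = 3.7e-04), and FRMD6, a FERM domain protein upstream of the kinases, by 0.34 (adjusted p = 0.0025). FRMD6 lost its call without control replicate 1 (0.061). WWC3, a relative of the scaffold WWC1 (KIBRA), stood at -0.38 (adjusted p = 0.0015) and fell along with TEAD2 and AMOT, while WWC1 was at 0.02 (adjusted p = 0.79). Without control replicates 1 and 2 the counts were 2 rising with 2 falling, and 5 rising with 2 falling. Without KO-1 replicate 1 they were 3 and 3, as with no mean-variance trend. In KO-1, 8 rose and 3 fell, so that 11 of 27 were called (40.7%), beside 29.7% of all genes. The number called was 7 without either control library and 6 without either KO-1 library, where the calls over all genes were 1694 to 1903 in place of 4089. In KO-2, 4 rose and 2 fell, and these 6 of 27 (22.2%) were near the 16.9% of all genes called. The KO-2 number was 1 and 2 without control replicates 1 and 2, beside 362 and 472 over all genes. It was 3 without either KO-1 library, 12 without KO-2 replicate 2 and 0 with no mean-variance trend, beside 1320 or 1321, 4565 and 162 over all genes. Between the guides 0 were called by limma at the adjusted threshold, where 1.14% of all genes were. At an unadjusted p below 0.05 there were 6 of 27, beside 2381 of all 13765 genes. Without KO-2 replicate 1, 3 were called beside 737 over all genes, and without KO-2 replicate 2, 10 beside 3170.

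**Figure D4:**
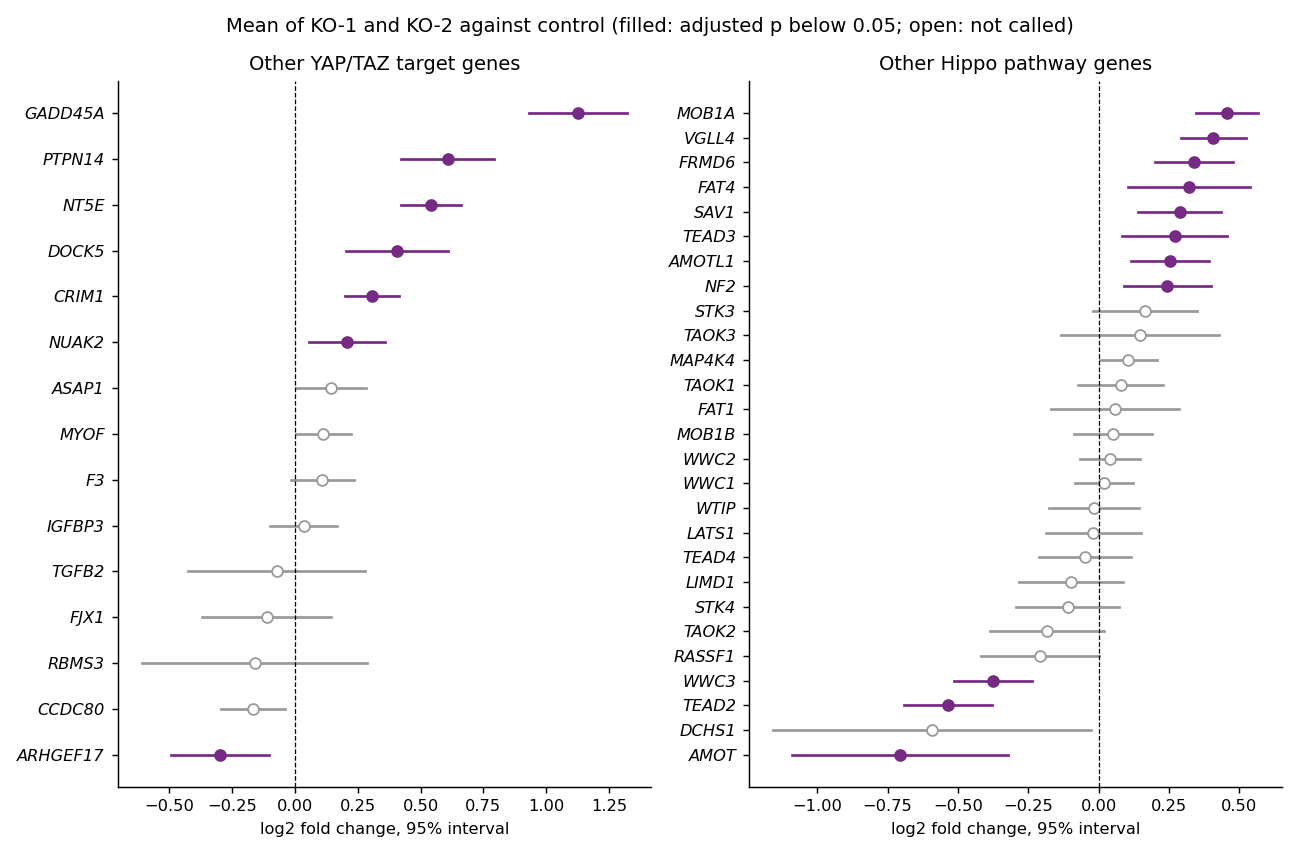
Log2 fold change of the mean of KO-1 and KO-2 against control, with 95% intervals from limma, for 15 other YAP/TAZ target genes (left) and 27 other Hippo pathway genes (right), each ordered by its value. Filled symbols mark genes called at an adjusted p below 0.05, which run from 1.13 for GADD45A to -0.30 for ARHGEF17 on the left and from 0.46 for MOB1A to -0.71 for AMOT on the right.

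Among 12136 genes that averaged 1 log2 CPM or more, those whose profile over the 6 libraries was most like that of CCN1 were EPAS1 (Pearson r 0.996), CCNB1IP1 (0.995), KITLG (0.995), MYO6 (0.995) and PGK1 (0.995), and CCN2 came 6th (0.994). For CCN2 they were NDFIP2 (0.997), KITLG (0.996), ZSWIM6 (0.994), CCN1 (0.994) and LCA5 (0.994). These values describe 6 points in 3 groups that share their libraries. KITLG, the ligand of the KIT receptor, was on both lists, with log2 fold changes of 0.76 in KO-1 and 0.26 in KO-2, beside 0.68 and 0.22 for CCN1. PGK1, a glycolytic enzyme, had the same shape at a far smaller size, 0.09 and 0.02.

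In the authors' deposited table, with a false discovery rate below 0.05, 9 of the 10 genes were higher and 0 lower in KO-1, and 8 higher and 0 lower in KO-2. For KO-2 against KO-1 the authors' deposited table had 3 of the 10 lower, CCN1 (log2 fold change -0.46, false discovery rate 0.0025), CCN2 (-0.40, 0.0029) and WWTR1 (-0.30, 0.046). Over all genes, the authors' deposited table called 29% in KO-1, 16.7% in KO-2 and 1.49% between the guides. Exons of other annotated genes overlap between 0.836% and 9.97% of the exon length of CCN2, AMOTL2, AJUBA, YAP1, WWTR1 and AXL, in 4 of these 6 on the opposite strand. The sources used here do not say whether counting used the strand, so reads in those stretches cannot be assigned to 1 gene.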

How the data were processed

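RNA of 6 CAL51 libraries was analysed. Per the submitters' processing notes, fastp, STAR (2.7), featureCounts from Subread (2.0) and edgeR were used with build hg38; the annotation, the strand setting and the gene filter were not given in the sources used here. The authors deposited log2 CPM for 14788 genes and, per the file headers, a table of log2 fold changes with p-values and false discovery rates. Subtracting the shared prior of 0.102 CPM gave whole reads for 100% of values (tolerance 0.01 reads), and 1 read was worth 0.0383 to 0.0767 CPM. These reads were used for depth, for CPM levels and for a voom fit. Replicates differed beyond sampling noise (chi-square per degree of freedom 3.06 in KO-1, 8.66 in KO-2, 3.78 in control).

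Genes at 0 log2 CPM or more in at least 2 libraries were tested (13765 kept, 1023 removed) with limma 3.58.1 in R 4.3.3: a group-means model of all 6 libraries with a mean-variance trend, 3 residual and 8.02 prior degrees of freedom, and Benjamini-Hochberg adjustment per comparison over all genes. Adjusted p-values in the text come from limma unless the authors' table is named. Fold changes are on the scale of log2 (CPM + prior), with no further pseudocount. The script was tested on simulated data. Exon lengths are from GENCODE v29, coordinates and promoters from RefSeq GRCh38.p14.

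The genes and lists were chosen with earlier results of these data known. Named were the 10 genes, up to 5 of each further list with the smallest p for both guides and for KO-2 against KO-1, and paralogs of TEAD1 and LATS2. TREX1 itself was not analysed here.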

Additional observations from a re-analysis of the deposited data

Results flagged for a closer look

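The difference between the guides passed the test for 3 named genes, all lower in KO-2 than in KO-1, where 1.14% of all genes were called. GADD45A was named partly for its small p in this comparison. All 3 calls were lost without either KO-1 library (adjusted p = 0.25 to 0.37) and with no mean-variance trend (0.21 to 0.23). The log2 difference was -0.46 for CCN1, -0.40 for CCN2 and -0.63 for GADD45A. Their levels in KO-2 were 8.03 and 8.04 log2 CPM for CCN1, 8.18 and 8.15 for CCN2, and 5.87 and 6.19 for GADD45A, against 8.47 and 8.54, 8.54 and 8.59, and 6.66 and 6.65 in KO-1. The guides differ in sequence, in the cells that carried them and in depth, which was 13222933 and 20154836 reads in KO-2 and 16802681 and 18440036 in KO-1, so these cannot be told apart.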

How the results depend on the processing

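With 2 libraries a group, calls rest on the variance shared over genes and groups. The 9 genes higher for both guides stayed above control under every alternative run. Leaving out 1 library each, the number of the 10 genes called was 7 to 10 for both guides, 8 to 10 in KO-1, 2 to 10 in KO-2 and 0 to 7 between the guides. All genes called then numbered 1286 to 6075, 1694 to 6255, 362 to 4565 and 0 to 3170. Without the mean-variance trend, 8 of the 10 genes were called for both guides, 8 in KO-1, 1 in KO-2 and 0 between the guides. All genes called were 2201 for both guides, 2345 in KO-1, 162 in KO-2 and 1 between the guides. Library medians, quantiles, both filters, log2(CPM + 1) and voom, the last chosen after seeing the data, left each count over the 10 genes and over all genes within 1.5 times.

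Replicate numbers in the titles carry no stated meaning, and the deviations of replicate 1 correlated at -0.05 between KO-1 and control, 0.04 between KO-2 and control and -0.04 between KO-2 and KO-1. With a replicate block, all genes called were 3782 for both guides, 3829 in KO-1, 2054 in KO-2 and 105 between the guides, and 9, 9, 8 and 2 of the 10 genes were called.

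Some values near 0 that were not called changed sign; the cause was not tested. Leaving out 1 library each, the log2 fold change between the guides ran from -0.39 to 0.062 for AJUBA, from -0.0056 to 0.063 for TEAD1 and from -0.076 to 0.088 for DOCK5. That of DOCK5 was -0.0048 with library medians set equal and -0.0015 with quantiles. For both guides, the range was -0.17 to 0.025 for TGFB2, -0.089 to 0.051 for LATS1 and -0.14 to 0.044 for TEAD4; LATS1 was at 0.028 with library medians set equal and WWC1 at -0.0032 with quantiles. In KO-2, TEAD4 ranged from -0.050 to 0.14. For AJUBA between the guides, the low end came from the fit without KO-2 replicate 2. Tests by edgeR and DESeq2 were planned and not run; the voom fit on recovered reads was run in their place.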
